A study of Mus musculus with 3 samples.

Results

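The genes described are 10 of the 31053 genes measured, chosen by name as secreted or surface serine proteases and serine protease inhibitors of squamous epithelium. They are the kallikreins Klk5, Klk6, Klk7, Klk8 and Klk10, the proteases Prss22 and Prss27, the inhibitor Spink5, and the serpins Serpinb3a and Serpinb12. All 10 were found in the count table. Their levels were read in the cells the authors named keratinocytes, in each of the 10 keratinocyte clusters, and in the other named cells.

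The cells came from the distal colon and anus of wild-type C57Bl/6 mice bought at 6 weeks of age, with no genetic change in any group. Day 0 mice were untreated, whereas day 7 and day 42 mice drank water with 3% DSS (dextran sulfate sodium, which damages the colon epithelium) for 6 days from day 0. Day 7 mice were described as highly colitic and day 42 mice as recovered, and the untreated mice were taken only at day 0. Tissue from 5 mice was pooled into 1 library per day, so no value below has a replicate and no test between days was possible.

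Kallikreins are secreted trypsin-like or chymotrypsin-like proteases that are made as inactive precursors and activate one another. In skin they cut the proteins that hold dead surface cells together, so that these cells are shed. Spink5 encodes LEKTI, an inhibitor whose fragments block Klk5 and Klk7 among others, and clade B serpins inhibit proteases inside or outside the cell. Prss22 (tryptase epsilon) and Prss27 (marapsin) are serine proteases of mucosal surfaces.

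The 5 kallikrein genes lay side by side on the plus strand of chr7:43781035-43851181 (GRCm38), in the order Klk10, Klk8, Klk7, Klk6 and Klk5. The stretch of 70147 bp held 6 protein-coding genes, the sixth being Klk9. Serpinb12 lay at chr1:106934449-106957080 and Serpinb3a at chr1:107045587-107052303 on the minus strand, 88506 bp away. Prss22, at chr17:23993534-23998100 on the minus strand, and Prss27, at chr17:24038144-24045954, were 40043 bp apart with 0 protein-coding genes between them. The transcript 2310002F09Rik overlapped Klk10 over 4376 bp and Klk8 over 382 bp, and how the counting treated strand was not given in the sources used here. Within the last 500 bases of each transcript, 6 of 451 stretches of 50 bases in Serpinb3a were also found in Serpinb3b, and 0 stretches of the other 9 genes were found in another gene.

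Promoter windows from RefSeq (GRCm38.p6), covering 250 bases before and 50 bases after a transcription start, were present for 8 of the 10 genes. The letters GTTAAAA, chosen after these sequences had been read, stood in the 250 bases before the start of 4 of them. They are shown in capitals with 9 bases on either side, 5′ to 3′ on the gene's own strand, because 3 of these 4 genes are kallikreins of the same chromosome 7 stretch that shared their highest level in the same cluster. Of 32851 windows, 3.03% held GTTAAAA on either strand. The Klk6 site, 69 to 63 bases before the start of the second of its windows, was at chr7:43825372-43825396 on the plus strand. The Klk8 site, 27 to 21 bases before the start and within an exon of 2310002F09Rik, was at chr7:43797541-43797565 on the plus strand. The Klk10 site, 18 to 12 bases before the RefSeq start but with all 7 letters inside the first Klk10 exon of GENCODE, was at chr7:43781027-43781051 on the plus strand. The Serpinb3a site, 241 to 235 bases before the start, was at chr1:107052529-107052553 on the minus strand.
Klk6: gagagagggGTTAAAAaggagctgg
Klk8: ggcttcctcGTTAAAAggctgcaaa
Klk10: atcttgaggGTTAAAAgggaaggtc
Serpinb3a: ctgacaagaGTTAAAAagctatcaa

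Both serpins, which shared their highest level in another cluster, are shown with the 120 bases before their start (Serpinb12 at the first of its windows), and Klk7, which held none of the letters searched, is shown beside them. Capitals mark TATAAA (the TATA box) in Serpinb3a and TGANTCA (the AP-1 element) in Serpinb12. On either strand, TATAAA stood in 12.4% and TGANTCA in 6.75% of all windows, and none of these motifs overlapped in the sequences shown. The stretches are chr1:107052304-107052423 on the minus strand for Serpinb3a, chr1:106934329-106934448 on the plus strand for Serpinb12 and chr7:43811174-43811293 on the plus strand for Klk7. A match in letters is a description and not a binding site, and a missing match says only that these letters were not in the window.
Serpinb3a: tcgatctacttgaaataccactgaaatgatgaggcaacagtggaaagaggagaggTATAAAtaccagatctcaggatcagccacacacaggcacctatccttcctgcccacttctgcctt
Serpinb12: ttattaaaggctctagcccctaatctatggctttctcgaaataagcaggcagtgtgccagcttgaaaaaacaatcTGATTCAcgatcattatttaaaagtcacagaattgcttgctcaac
Klk7: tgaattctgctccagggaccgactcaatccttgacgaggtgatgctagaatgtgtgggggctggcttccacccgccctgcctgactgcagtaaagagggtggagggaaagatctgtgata

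The libraries held 11037, 14376 and 11667 cells at days 0, 7 and 42, with 89241138, 151886649 and 72258639 unique molecular identifiers (UMIs, each 1 captured RNA molecule). Keratinocytes were 3316, 9035 and 7970 of these cells, with a median of 9168, 11481 and 6542 UMIs. More than 20% of UMIs were mitochondrial in 9.08%, 4.78% and 1.72% of keratinocytes. In all, 139 cell barcodes occurred in 2 libraries, and leaving those cells out changed none of the counts of genes given below for all keratinocytes. Levels are given as CPM, the counts of a gene per 1000000 UMIs of a cluster or cell type, with 95% intervals that cover counting error only.

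The authors' name keratinocyte fitted the markers, and the clusters within it differed. Cluster 4 held the epidermal keratins at the highest level, with Krt1 at 7279 CPM and Krt10 at 10138 CPM. Cluster 5 held the mucosal keratins, with Krt13 at 9503 CPM and Krt4 at 2049 CPM, against 41 CPM of Krt1. Clusters 1 and 3 held Krt14, a keratin of the basal layer, at 11817 and 13143 CPM, below the 19167 CPM of cluster 5, with less Krt10 and Krt13 than clusters 4 and 5 respectively, and cluster 3 was led by the dividing-cell genes Ube2c and Birc5. Cluster 8 was led by Cst6, Defb6, Alox12e and Krt79 and had Krt10 at 588 CPM and Krt13 at 86.6 CPM. The clusters were built from all genes, so the level of a gene in one cluster against another is a description.

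All 10 genes had their highest level, over the 3 libraries together, in a keratinocyte cluster, and between 94.1% and 98.6% of each gene's UMIs came from keratinocytes. They divided into 3 groups by cluster: Klk6, Klk7, Klk8 and Klk10 were highest in cluster 8, Klk5, Serpinb3a and Serpinb12 in cluster 4, and Spink5, Prss22 and Prss27 in cluster 5. For 3 genes the UMIs were spread over more clusters. Cluster 8 held 27.0% of Klk8 UMIs and cluster 4 47.6%, and Klk10 had 26.5% in cluster 8 and 26.3% in cluster 3. Spink5 had 36.4% in cluster 5 and 35.9% in cluster 4, and 13.1% and 50.1% without day 42. Within single days the leading cluster, among those with at least 50 cells, was the same in all 3 libraries for Klk7, Serpinb12, Spink5, Prss22 and Prss27. At day 0 cluster 12 led for Klk5, Klk10 and Serpinb3a and cluster 4 for Klk8. At day 7 cluster 8 led for Klk5, and at day 42 cluster 4 led for Klk6. The cluster 12 leads rest on few of its 51 cells, with Klk5 at 4 UMIs there against 209 in cluster 4. Without the 10 cells with most UMIs, cluster 12 at day 0 was at 0 CPM for Klk5 and Serpinb3a and 20.4 CPM for Klk10. Cluster 4 was then higher for each of these genes. The Klk6 lead at day 42 rests on 4 UMIs, against 1 in cluster 8. Spink5 was the most counted, with 67557 UMIs in 7331 cells, followed by Prss22 (25162 UMIs), Serpinb3a (24567), Klk8 (15071), Prss27 (14093), Klk10 (14052), Serpinb12 (11306) and Klk7 (3566). Klk6 and Klk5 were rare, with 576 UMIs in 79 cells and 559 UMIs in 162 cells. These totals are UMIs of a 3′ assay and are not compared per length.

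**Figure D1:**
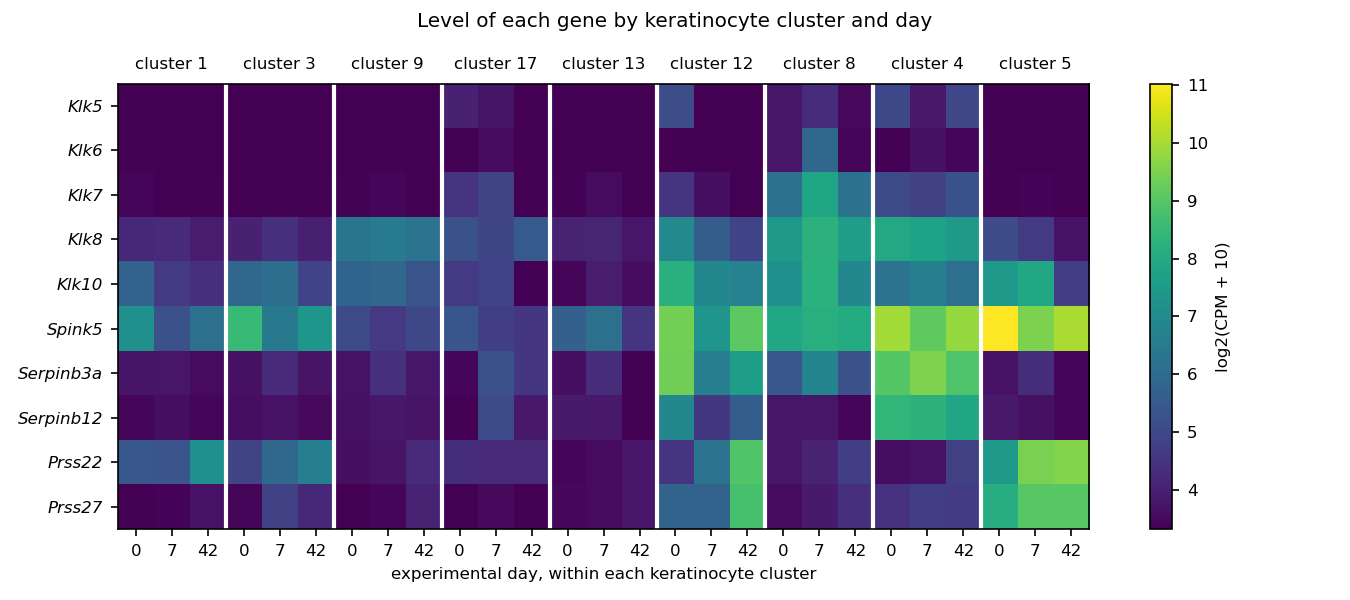
Level of each gene, as log2(CPM + 10), in 9 keratinocyte clusters at days 0, 7 and 42 (1 pooled library per day). The cluster with under 50 cells in each library is left out. Serpins are high in cluster 4, Klk6, Klk7 and Klk10 in cluster 8, Klk8 in both, and Prss22 and Prss27 in cluster 5.

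Klk7, a chymotrypsin-like kallikrein of the stratum corneum, stood at 59.9, 223 and 64.7 CPM in cluster 8 at days 0, 7 and 42. Day 7 was the high library, and the counting intervals of days 0 and 42 overlapped (54.0 to 66.4 and 52.2 to 79.4 CPM). Klk6, a trypsin-like kallikrein, stood at 3.74, 51.2 and 0.70 CPM in the same cluster. Nearly all of its signal was thus at day 7 (46.7 to 56.0 CPM). Klk10 stood at 136, 296 and 109 CPM, again highest at day 7. Klk8, also called neuropsin, stood at 168, 299 and 189 CPM, and Klk5, which can activate other kallikreins, at 3.74, 9.85 and 1.41 CPM. All 5 kallikreins were therefore highest at day 7 in cluster 8.

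Days were compared as the log2 ratio of (CPM + 10), and a gene with at least 10 CPM in either library was counted as past 2-fold when this ratio reached 1 in size. In cluster 8 at day 7 against day 0, 4 of the 6 genes that met this level were higher, namely Klk6 (log2 ratio 2.16), Klk7 (1.73), Serpinb3a (1.38) and Klk10 (1.07), and 0 were lower. Klk10 was at 0.97 with the filter on cells (at least 1000 UMIs and 500 genes, at most 20% mitochondrial), short of 2-fold. Of all 8045 genes compared in that cluster, 0.957% passed 2-fold either way. Klk8 was at 0.80, and Spink5, at 238, 272 and 256 CPM, did not pass. At day 42 against day 0, 0 of 7 genes passed 2-fold in cluster 8, where 0.333% of all genes did. The median of all 10 genes in cluster 8 at day 7 was 0.66, and 1.22 over the 6 with enough counts, beside -0.064 over all genes compared.

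In cluster 8 at day 7, Klk6 and Klk7 came from fewer cells than Klk8, which was found in 527 of 943. Klk6 had 473 UMIs in 45 cells, and the 10 cells with most of them held 80.8% of its UMIs. Klk7 had 2056 UMIs in 107 cells, of which 10 cells held 48.7%. Klk10 had 2734 UMIs in 195 cells, and at day 0 57 of 781 cells held all 837. Without the 10 cells with most UMIs of each gene in each library, the day 7 ratios were 1.01 for Klk6, 2.09 for Klk7 and 2.20 for Klk10. With each cell thinned to 1000 UMIs, which evens out depth, cells with a Klk7 UMI were 2.06%, 6.28% and 3.07% of cluster 8 at days 0, 7 and 42, against 4.99%, 11.3% and 5.77% unthinned. Thinned shares for Klk10 were 3.35%, 8.01% and 3.63%, and for Klk8 9.40%, 19.2% and 14.8%. In T cells 4 Klk7 UMIs were found, all in 1 cell at day 7, and none after thinning in any library, which allows a share of up to 1.54%, 2.78% and 3.33% of 195, 108 and 90 cells.

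Cells with one of these kallikreins more often held another than all cells of the cluster did. Of the 45 cluster 8 cells with a Klk6 UMI at day 7, 88.9% also had a Klk7 UMI, against 11.3% of all cells of that cluster. For Klk10 the shares were 75.6% against 20.7%, and for Spink5 86.7% against 24.5%. Of the 107 cells with Klk7, 72.0% had Spink5, so protease and inhibitor RNA occurred together in most of them. In the other direction the overlap was partial: 37.4% of the Klk7 cells had Klk6, and 33.8% of the 195 Klk10 cells had Klk7, whereas 17.4% had Klk6. The Klk6 cells were deeper, with a median of 15221 UMIs against 8743, and the part of depth in these shares was not tested.

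**Figure D2:**
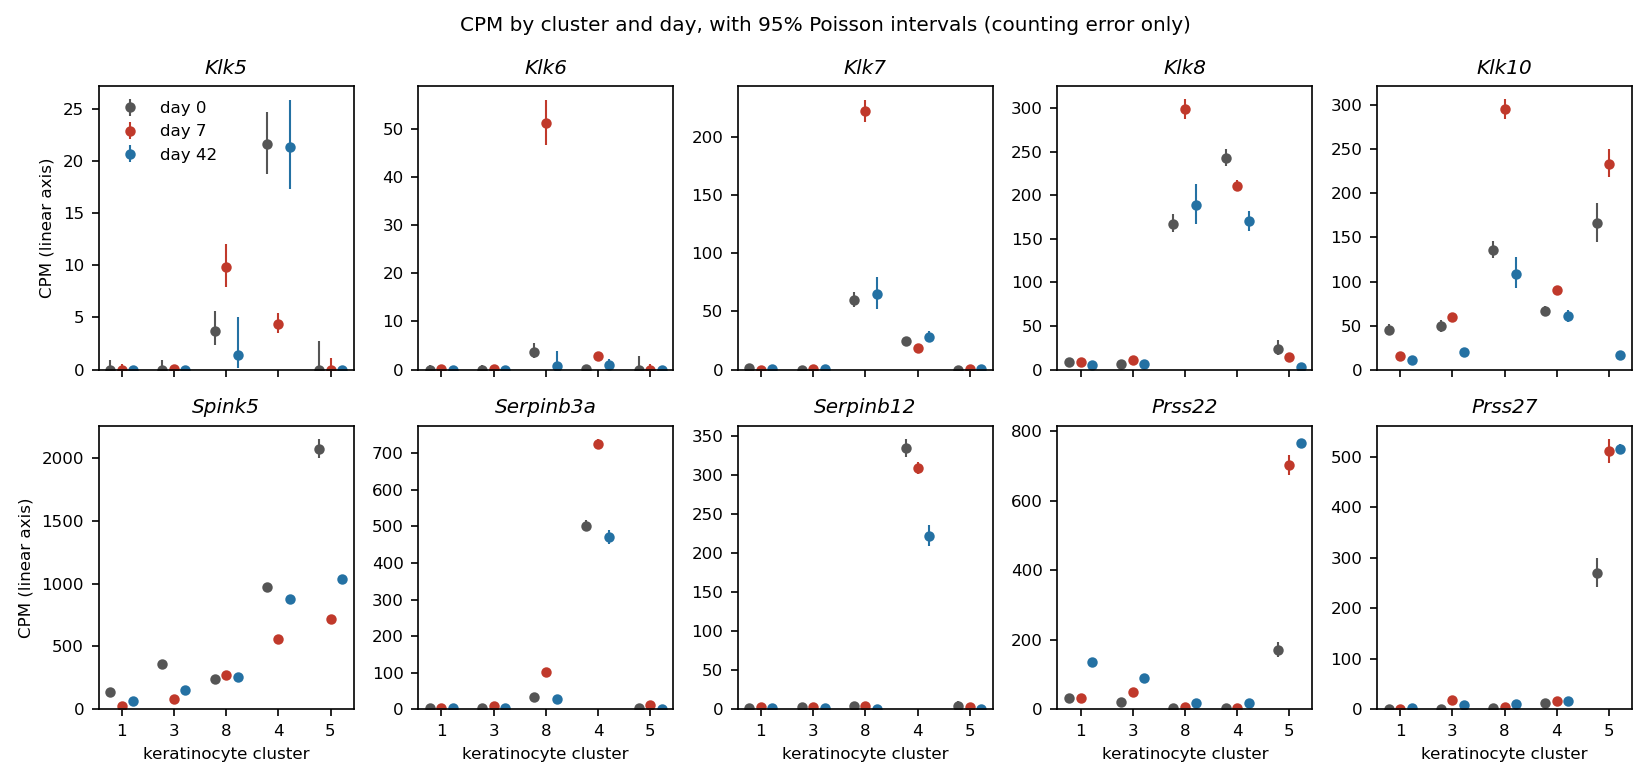
CPM of each gene (linear axis, separate scale per gene) in keratinocyte clusters 1, 3, 8, 4 and 5. Points are the single pooled libraries of days 0, 7 and 42, and bars are 95% Poisson intervals for counting error only. Klk6 and Klk7 peak at day 7 in cluster 8, and Spink5 in cluster 5 is highest at day 0.

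In the Krt1- and Krt10-rich cluster 4 the kallikreins differed in their order of days. Klk5 stood at 21.6, 4.37 and 21.3 CPM at days 0, 7 and 42, lowest at day 7, with 209, 83 and 101 UMIs in 27, 17 and 24 cells. Klk7 stood at 24.7, 18.2 and 28.1 CPM there, Klk8 at 243, 211 and 170 CPM, and Klk10 at 66.6, 90.9 and 60.4 CPM. Klk6 was at 0.10, 2.79 and 0.84 CPM. Klk6 and Klk10 were thus highest at day 7 here too, whereas Klk5 and Klk7 were lowest there. For Klk6 and Klk7 this rests on few cells. Klk6 was found in 8 of 1315 cells at day 7, and without the 10 cells with most UMIs Klk7 was at 3.601, 1.54 and 0.43 CPM. Of the 8 genes compared in cluster 4 at day 7 against day 0, Klk5 alone passed 2-fold (log2 ratio -1.14), where 1.14% of all genes passed. Without the 10 cells with most of its UMIs the ratio was -0.51, so this call rests on few cells. At day 0, 15 of the 27 Klk5 cells also had Klk7, a share of 55.6% against 3.30% of the cluster, and all 27 had Spink5 (78.8% of the cluster). Klk10 went the other way, in 2 of the 27 cells (7.41%) against 28.4% of the cluster. The Klk5 cells had a median of 17830 UMIs against 12923.

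Serpinb3a and Serpinb12, both intracellular-type serpins, were features of cluster 4, which held 85.1% and 89.7% of their UMIs. Serpinb3a stood at 502, 727 and 471 CPM at days 0, 7 and 42, highest at day 7. Serpinb12 stood at 334, 308 and 222 CPM, lowest at day 42. Neither passed 2-fold in cluster 4 in any comparison of days. Thinned shares of cluster 4 cells with Serpinb3a were 17.3%, 32.7% and 14.9% (41.6%, 71.3% and 36.1% unthinned), against at most 1.11% of T cells. The serpins occurred together: at day 0, 74.8% of the 286 Serpinb12 cells had Serpinb3a, against 41.6% of all cluster 4 cells, at a median of 17088 UMIs against 12923. In the Krt13-rich cluster 5, Serpinb3a was at 2.99, 10.2 and 0.97 CPM and Serpinb12 at no more than 4.49 CPM.

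Prss22 and Prss27 were features of cluster 5, which held 67.0% and 82.9% of their UMIs over the 3 libraries. Most of these came from day 42, and without that library the shares were 39.5% and 52.2%. In the day 7 library the dividing cluster 3 held 2741 Prss22 UMIs, against 2418 in cluster 5. Prss22 stood at 170, 702 and 765 CPM there at days 0, 7 and 42, from 87, 162 and 2153 cells. Prss27 stood at 269, 510 and 515 CPM. Both were lowest at day 0, and for both the day 0 interval (149 to 194 and 242 to 298 CPM) lay below those of the other days. Prss22 passed 2-fold at day 7 (log2 ratio 1.98) and at day 42 (2.10), whereas Prss27 did not (0.90 and 0.91). Without the 10 cells with most UMIs, Prss27 reached 1.31 and 1.73, past 2-fold. Thinned shares of cluster 5 cells were 11.6%, 29.0% and 31.0% for Prss22 (67.8%, 77.2% and 66.2% unthinned) and 16.3%, 27.2% and 22.2% for Prss27. Of the 1426 Prss22 cells at day 42, 60.7% had Prss27, against 48.4% of the cluster.

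Prss22 was also found in clusters 1, 3 and 12, and Prss27 in cluster 12 and, at day 7, in cluster 3. In cluster 12, which had 51 cells at day 0, Prss22 stood at 12.7, 66.2 and 484 CPM at days 0, 7 and 42. Prss27 stood there at 44.4, 44.6 and 436 CPM. Without the 10 cells with most UMIs the day 42 values were 142 CPM for Prss22 and 171 CPM for Prss27. In cluster 1 Prss22 stood at 32.3, 30.5 and 137 CPM and in cluster 3 at 20.0, 49.1 and 90.6 CPM, highest at day 42 in both. Its day 42 log2 ratios to day 0 were 1.79 and 1.74, and 0.89 in cluster 3 after thinning. Prss27 was at most 2.87 CPM in cluster 1, and in cluster 3 it stood at 0.78, 18.5 and 8.04 CPM, past 2-fold higher at day 7 than at day 0 (log2 ratio 1.40). At day 7 cluster 3 held 29.6% of the 3487 Prss27 UMIs of the library. At day 42 against day 0, Prss22 was positive in 6 of the 7 clusters where it was compared and past 2-fold in 5, beside 5.33% of all pairs of a gene and a cluster, including the epidermal cluster 4, where it stood at 2.17, 2.95 and 17.3 CPM. In cluster 4 the ratio was 1.17, and it was 0.48 without the 10 cells with most UMIs.

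Spink5 was lower at day 7 in most clusters. In cluster 5 it stood at 2077, 718 and 1040 CPM at days 0, 7 and 42, in cluster 4 at 976, 561 and 882 CPM, in cluster 3 at 359, 77.4 and 155 CPM, and in cluster 1 at 137, 27.5 and 61.1 CPM. In these 4 clusters day 0 was the highest library and day 7 the lowest, with counting intervals that did not overlap. The day 7 log2 ratios to day 0 were -1.52, -0.79, -2.08 and -1.97, and without the 10 cells with most UMIs they were -1.73, -0.81, -1.69 and -1.82. Over the 9 clusters with at least 50 cells in every library, Spink5 was negative in 7 and past 2-fold lower in 4, beside 4.99% of all pairs of a gene and a cluster past 2-fold either way. Cluster 8 (238, 272 and 256 CPM) and cluster 13 (41.4, 62.3 and 12.98 CPM) were the exceptions. Thinned shares of cells with Spink5 were 72.1%, 41.4% and 43.1% of cluster 5 (93.1%, 77.2% and 71.7% unthinned) and 17.8%, 5.35% and 9.45% of cluster 3. In T cells they were 0.51%, 0.93% and 1.11%.

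Klk10 and Klk8 in cluster 5 were low at day 42. Klk10 stood at 166, 234 and 16.9 CPM and Klk8 at 23.9, 14.8 and 3.01 CPM. The day 42 log2 ratios to day 0 were -2.71 and -1.38, and for Klk10 against day 7 -3.18. At day 0, however, 10 cells held 85.1% of the 222 Klk10 UMIs of cluster 5, and without the top 10 cells of each library the ratios were -0.91 for Klk10 and 0.0093 for Klk8. Klk10 against day 7 remained past 2-fold without them (-2.92). Cluster 5 also held Flg (filaggrin, of the epidermal surface) and Cst6, the leading gene of cluster 8, at levels that were lower after day 0: Flg stood at 169, 5.52 and 10.1 CPM and Cst6 at 573, 62.1 and 53.4 CPM, and their part in the Klk10 values was not tested. Thinned shares of cluster 5 cells with Klk10 were 10.5%, 11.1% and 1.30%. Klk10 was lower at day 42 than at day 0 in all 8 clusters where it was compared and past 2-fold in 5, beside 5.33% of all pairs of a gene and a cluster, with 45.1, 15.0 and 10.9 CPM in cluster 1 and 49.1, 59.4 and 19.5 CPM in cluster 3. Without the 10 cells with most UMIs, clusters 1 (-1.27) and 3 (-1.02) stayed past 2-fold, and clusters 5, 12 (-0.24) and 17 (0) did not. Cluster 3 was at the threshold (-1.0014) and fell short of it after thinning (-0.992), with likely doublets left out (-0.976) and with size factors (-0.985).

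In cluster 5, 2 of the 6 genes compared passed 2-fold at day 7 against day 0 (Prss22 higher and Spink5 lower), where 5% of all genes did. Klk10 was at 0.47 and did not pass, but without the 10 cells with most UMIs it was at 2.01 (29.0 and 147 CPM). In the day 42 library, 3 of 5 passed against day 0 (Prss22 higher, Klk8 and Klk10 lower), where 4.25% of all genes did. In cluster 4 at day 42, Prss22 alone of 9 genes passed, where 0.415% of all genes did. Over all pairs of a gene and 1 of 9 clusters, 49 of 90 had enough counts at day 7, of which 9 were higher and 11 lower, beside 4.99% of all gene and cluster pairs past 2-fold. For day 42 against day 0, 7 were higher and 15 lower among 46 pairs, beside 5.33%. For day 42 against day 7, 7 were higher and 10 lower among 49, beside 3.87%. Pairs of cluster 12 made 7 of the 20 calls at day 7, and without that cluster 13 remained, 8 higher and 5 lower. At day 42 against day 0 the calls without it were 5 higher and 9 lower. The balance of directions turned without the 10 cells with most UMIs, to 15 higher and 5 lower at day 7 and 6 higher and 2 lower at day 42 against day 0. For day 42 against day 7 it was then 5 higher and 10 lower. Cluster 12 had 51 cells at day 0, a median of 1948 UMIs there, and 25.2% of all its genes past 2-fold at day 7.

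The balance of inhibitor and kallikrein RNA differed between clusters and days. Spink5 UMIs per UMI of the 5 kallikreins together were 2.23, 0.998 and 8.78 in all keratinocytes at days 0, 7 and 42. In cluster 5 the values were 10.9, 2.88 and 51.8, in cluster 4 2.74, 1.71 and 3.14, in cluster 3 6.46, 1.10 and 6.05, and in cluster 8 0.641, 0.310 and 0.701. Day 7 was the lowest library in each of these 4 clusters, also in cluster 8, where Spink5 itself was not lower. Spink5 UMIs were fewer than kallikrein UMIs at every day in cluster 8, and also in cluster 9 (0.199, 0.107 and 0.229) and cluster 17 (0.522, 0.262 and 0.375). Without the 10 cells with most kallikrein UMIs this held in clusters 8 and 9 but not in cluster 17. Day 0 of cluster 17 was then at 2.19, with 16 kallikrein UMIs left, and its day 42 value of 0.375 rests on 8. Cluster 13 (4.90, 4.12 and 2.33, the last from 3 kallikrein UMIs) did not have its lowest value at day 7. The value of 10.9 rests on 254 kallikrein UMIs, of which 10 cells held 81.1%. Without the 10 cells with most kallikrein UMIs the cluster 5 values were 45.6, 4.24 and 75.3, and day 7 stayed the lowest in all 4 clusters. These are ratios of RNA molecules, not of protein or of activity.

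**Figure D3:**
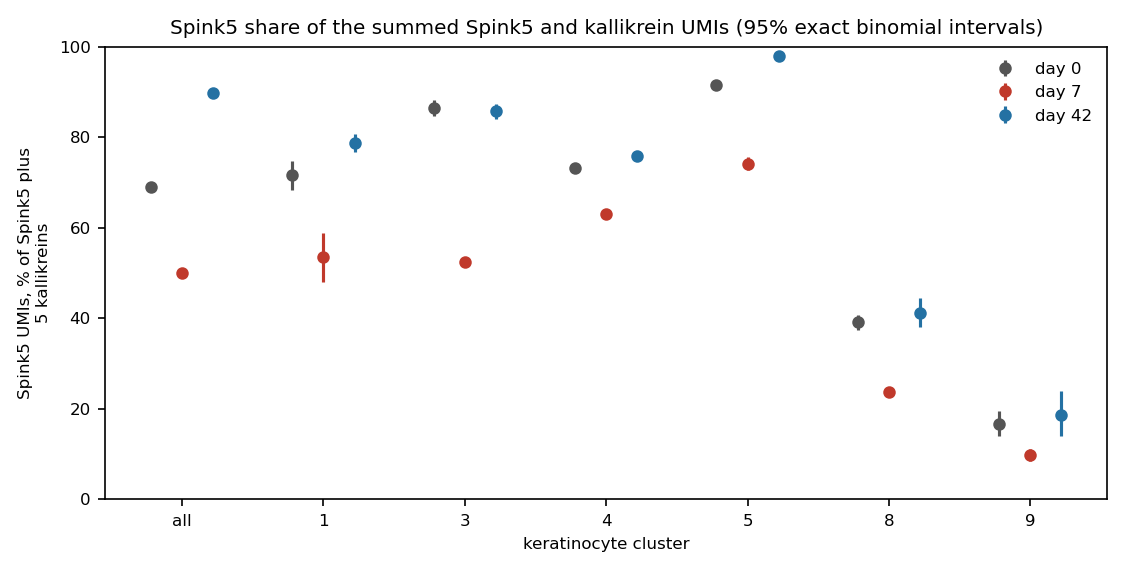
Spink5 UMIs as a percentage of the summed UMIs of Spink5 and the 5 kallikreins, in all keratinocytes and in 6 clusters, at days 0, 7 and 42. Bars are 95% exact binomial intervals for counting error only, and each point is 1 pooled library. Day 7 is the lowest point in every column.

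Summed over all keratinocytes, the same genes gave a different picture at day 42. Prss22 stood at 15.0, 45.4 and 312 CPM at days 0, 7 and 42, and Prss27 at 14.6, 26.2 and 170 CPM. Spink5 stood at 470, 171 and 461 CPM. Klk8 stood at 115, 68.8 and 25.1 CPM, Klk10 at 69.9, 76.8 and 21.6 CPM, and Klk7 at 18.6, 19.5 and 4.06 CPM. Serpinb3a stood at 153, 125 and 41.4 CPM and Serpinb12 at 97.5, 49.2 and 19.1 CPM. Klk5, at 7.21, 1.47 and 1.77 CPM, and Klk6, at 0.71, 4.20 and 0.086 CPM, were under 10 CPM in each library and were not counted.

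At day 7 against day 0, 1 of the 8 genes counted was past 2-fold higher (Prss22, log2 ratio 1.15) and 1 lower (Spink5, -1.41), where 2.55% of all 8378 genes passed. After thinning, 0 of the 8 passed, with Prss22 at 0.98 and Spink5 at -0.93. At day 42 against day 0, 2 were higher, Prss22 (3.69) and Prss27 (2.87), and 5 were lower, Klk7 (-1.02), Klk10 (-1.34), Serpinb3a (-1.67), Klk8 (-1.83) and Serpinb12 (-1.88), where 5.18% of all 8401 genes passed. Klk7 did not pass without the 10 cells with most UMIs (-0.77) or after thinning (-0.86). At day 42 against day 7, 3 were higher, with Spink5 (1.38) joining Prss22 (2.54) and Prss27 (2.32), and 5 were lower, where 3.81% of all 8139 genes passed. Of these, Klk7 did not pass without the 10 cells with most UMIs (-0.89), nor Serpinb12 with size factors (-0.98). The median of all 10 genes was -0.11, -0.79 and -0.76 in the 3 comparisons, beside -0.0089, -0.034 and -0.039 over all genes compared. Over the 8 genes counted it was -0.11, -1.18 and -1.05.

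The clusters held different shares of the keratinocytes of each library. Cluster 5 was 2.62%, 1.79% and 27.0% of keratinocytes at days 0, 7 and 42, and cluster 1 was 13.4%, 6.23% and 38.2%. Cluster 4 was 21.0%, 14.6% and 8.23%, and cluster 8 was 23.6%, 10.4% and 4.57%. The dividing cluster 3 was 8.11%, 21.9% and 12.2%, cluster 12 was 1.54%, 18.5% and 1.91%, and cluster 13 was 6.57%, 12.6% and 1.33%. Cluster 3 held 55816878 of the 128310378 keratinocyte UMIs at day 7, against 3846899 of 33996634 at day 0. With each cluster given equal weight, 3 genes instead of 7 passed 2-fold at day 42 against day 0: Prss22 (2.23), Prss27 (1.38) and Klk10 (-1.05). Klk8 was then at -0.37, Serpinb3a at -0.68, Serpinb12 at -0.61 and Klk7 at -0.14. Without cluster 12 as well, Prss22 alone passed (1.81). At day 42 against day 7, 1 of the 8 calls held with equal weights (Klk10, -1.16): Spink5 was at 0.62, Prss22 at 0.75, Prss27 at 0.66, Klk7 at -0.96, Klk8 at -0.41, Serpinb3a at -0.44 and Serpinb12 at -0.34. Spink5 at day 7 was -1.22 with equal weights and -1.12 without cluster 12.

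**Figure D4:**
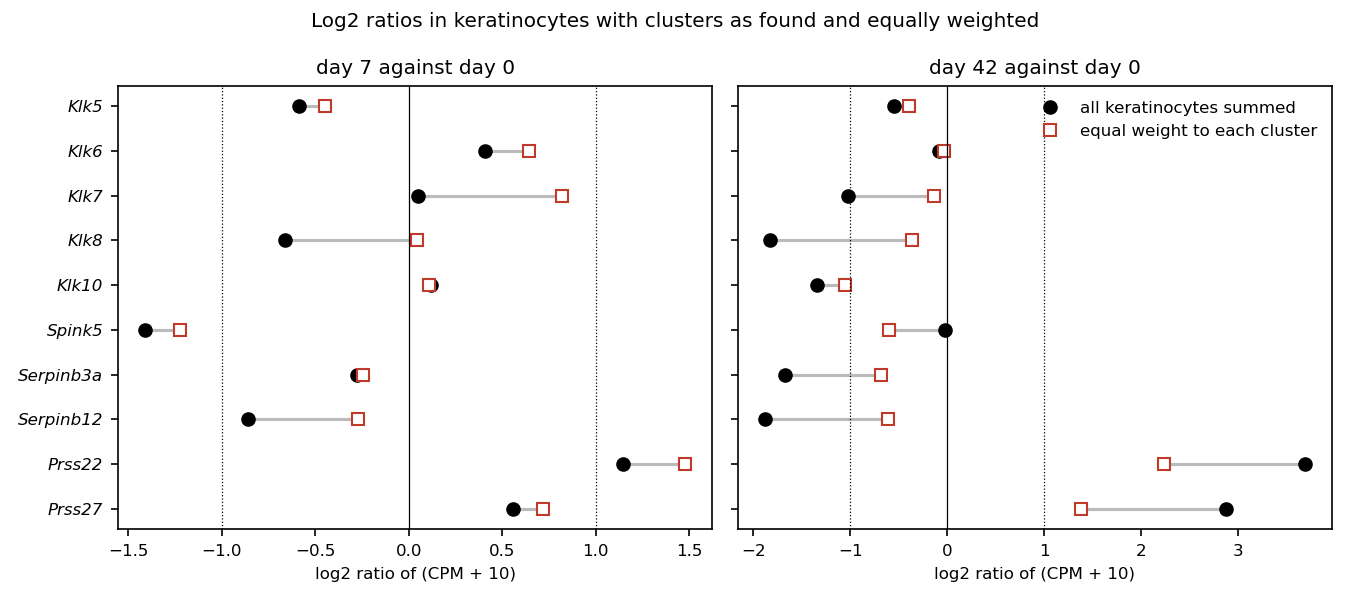
Log2 ratio of (CPM + 10) in keratinocytes at day 7 and day 42 against day 0. Filled circles sum all keratinocytes, open squares give each of 9 clusters equal weight, and dotted lines mark 2-fold. At day 42 the squares of Klk7, Klk8, Serpinb3a and Serpinb12 lie inside the dotted lines and those of Prss22, Prss27 and Klk10 outside them.

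Among other named cell types with at least 50 cells in a library, the highest level of any of the 10 genes was that of Klk8 in T cells. Klk8 stood at 134, 136 and 186 CPM in T cells at days 0, 7 and 42, with 95% intervals of 105 to 168, 98.95 to 182 and 131 to 256 CPM. Keratinocyte cluster 8 stood at 168, 299 and 189 CPM and cluster 4 at 243, 211 and 170 CPM. A Klk8 UMI was found in 54 of 219, 25 of 118 and 33 of 121 T cells. After thinning to 1000 UMIs the shares were 12.8%, 11.1% and 23.3% of T cells, against 7.37%, 6.12% and 2.36% of keratinocytes, and 0 of 78 macrophages at day 0, which allows a share of up to 3.85%, and 0.38% at day 7. In fibroblasts they were 0.15%, 1.41% and 0%, the last of which allows up to 1.48%. Median depths of T cells were 2064, 2260 and 1393 UMIs, below those of keratinocytes. Whether these UMIs are expression by the T cells or stray RNA was not tested.

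T cells held 17.4, 4.86 and 23.7 of every 1000 Klk8 UMIs of the libraries and 0.228, 0.487 and 0.255 of every 1000 Spink5 UMIs. Endothelial cells held 1.88, 16.3 and 15.4 of every 1000 Klk8 UMIs, more than the T cells at day 7. Colonocytes held 38.6, 6.69 and 10.9 and fibroblasts 12.2, 4.10 and 1.28 of every 1000. Serpinb3a was found in 0 of 54, 2 of 25 and 0 of 33 T cells with Klk8, and the zeros allow shares of up to 5.56% and 9.09%. The T cell markers were at 574 CPM for Cd3g, 204 CPM for Trac and 146 CPM for Cd3e in that cluster, and Cd3g was found in 46.3%, 60% and 69.7% of the Klk8 cells, against 44.3%, 48.3% and 57.9% of all T cells. Keratinocyte RNA was present in these cells too: Krt14 was found in 20.4%, 68% and 60.6% of the T cells with Klk8, close to 15.5%, 68.6% and 59.5% of all T cells. Krt10 was found in 5.56%, 36% and 15.2% of them against 8.22%, 30.5% and 8.26%. The T cells with Klk8 were deeper, with medians of 2854.5, 3787 and 1667 UMIs, and the part of depth in these shares was not tested. Endothelial cells held Klk8 at 18.98, 61.2 and 64.5 CPM, with thinned shares of 0% (up to 3.13% of 96 cells), 5.35% and 7.69%.

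**Figure D5:**
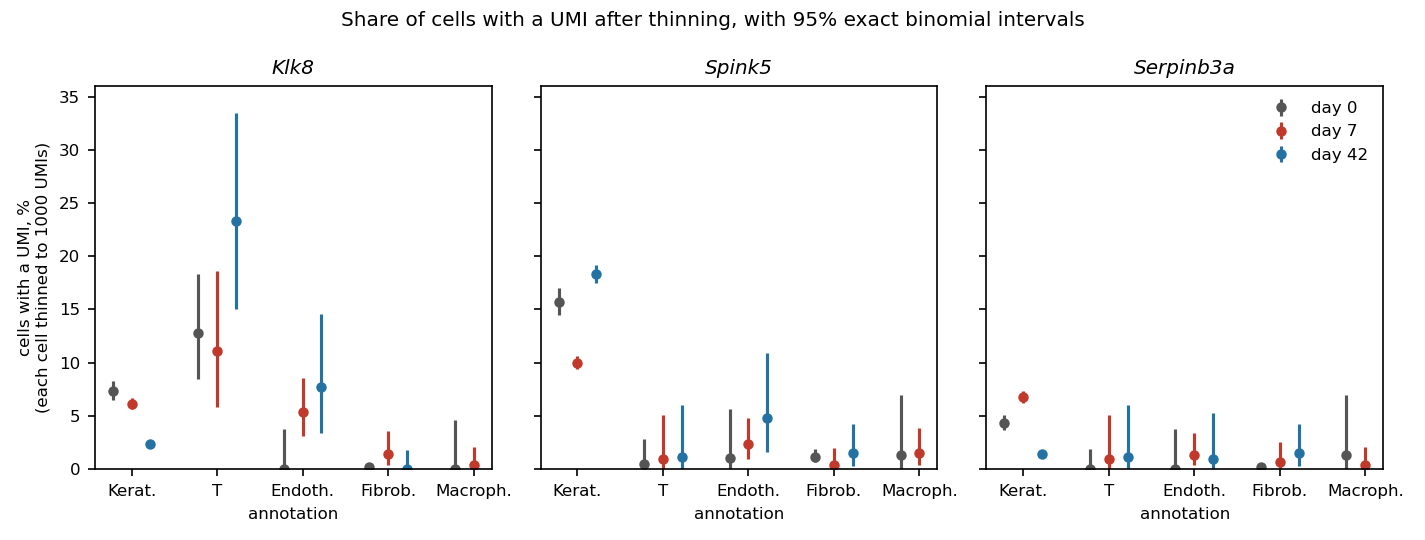
Percentage of cells with a UMI of Klk8, Spink5 or Serpinb3a after each cell was thinned to 1000 UMIs, for 5 named cell types at days 0, 7 and 42. Bars are 95% exact binomial intervals for counting error only, and macrophages at day 42 are not shown (under 50 cells). T cells lie above keratinocytes for Klk8 but not for Spink5 or Serpinb3a.

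The remaining genes were lower than this in the other named cells. Over 27 combinations of another named cluster and day, Klk5, Klk6 and Klk7 had a median of 0 CPM, and the highest values were 2.98, 0.24 and 12.99 CPM, the last in T cells at day 7. Highest values were 34.9 CPM for Klk10 and 124 CPM for Spink5, both in colonocytes at day 7. The colonocyte cluster 22 also held Krt14 at 5385 CPM, and the part of keratinocyte RNA in these 2 values was not tested. Prss22 reached 40.9 CPM in fibroblasts, Prss27 31.6 CPM in enteroendocrine cells, Serpinb3a 63.5 CPM in lymphatics and Serpinb12 29.2 CPM in T cells. In cluster 14, which the authors named unknown, Serpinb12 was at 95.2 CPM, its second highest cluster.

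The genes whose pattern was most like that of each member were found by Pearson's r of log2(CPM + 10) over 60 combinations of cluster and day, among 8569 genes. The points share 3 libraries and, in part, the same depth, so r is a description. Spink5 was most like Elf5 (r = 0.924), Tmprss11b (0.914) and Teddm3 (0.878). Among the genes most like Prss27 were Sprr2d (0.939) and Krt6b (0.900), and Prss22 was most like Slc23a4 (0.881), Calcb (0.866) and Tmprss11d (0.861). Serpinb3a was most like Krt10 (0.904), Serpinb12 (0.891) and Gm94 (0.875), and Serpinb12 like Serpinb3b (0.892), Serpinb3a (0.891) and Slurp2 (0.886).

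Among the kallikreins, Klk5 was most like Dsc1 (0.858), Cdsn (0.782) and Serpinb3b (0.777), where Dsc1 and Cdsn encode desmocollin 1 and corneodesmosin of the cell junctions that kallikreins cut. Klk7 was most like Atp6v1c2 (0.866), Gsdma (0.804) and Defb6 (0.754). Klk6 was most like Klk7 (0.679), Defb6 (0.605) and Atp6v1c2 (0.597). Klk10 was most like Cers3 (0.855), Teddm3 (0.853) and Klk13 (0.844), and Klk8 like Fam25c (0.755), Calm4 (0.751) and Ndufa4l2 (0.744). Between members, r was 0.83 for Prss22 with Prss27, 0.76 for Klk10 with Spink5 and -0.12 for Klk8 with Prss22. Neighbouring genes of the chromosome 7 stretch were thus not all alike: r was 0.29 for Klk5 with Klk6.

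Other genes of the same pathway were read from 4 lists. Of 8 other kallikreins, 2 reached 10 CPM in keratinocytes, and at day 42 against day 0 both were past 2-fold lower, where 5.18% of all genes passed 2-fold either way. Within clusters 4 and 8, 0 of 2 were (medians -0.31 and 0.30, beside 0.415% and 0.333% of all genes), and in cluster 5 3 of 4 were lower (median -1.60, beside 4.25%). Klk13 stood at 46.2, 45.6 and 14.6 CPM at days 0, 7 and 42. Klk13 in cluster 5 stood at 106 CPM at day 0, 240 CPM at day 7 and 12.8 CPM at day 42, the same order as Klk10. Of 14 other proteases of the surface or cornified layer, which include the intracellular Ctsl, Ctsd and Casp14, 2 of 11 were higher at day 7 and 3 of 12 were higher and 1 lower at day 42, beside 2.55% and 5.18% of all genes. At day 42, 0 of 11 passed in cluster 4 and 0 of 11 in cluster 8, and in cluster 5 1 of 14 was higher and 3 lower, beside the same shares of all genes. The higher ones were Tmprss11g (12.5, 62.7 and 98.8 CPM), the lysosomal cathepsin gene Ctsl (85.5, 210 and 215 CPM) and, at day 42, Tmprss11d (47.3, 63.8 and 260 CPM). The lower one was Asprv1, a protease that processes filaggrin (52.8, 42.8 and 14.7 CPM).

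Of 20 other protease inhibitors, 10 were compared in keratinocytes, with 0 higher and 2 lower at day 7 and 1 higher and 2 lower at day 42, beside the same 2.55% and 5.18%. Within cluster 4, 3 of 15 were higher and 0 lower at day 7, beside 1.14% of all genes. At day 42, 0 passed in clusters 4 and 8, and in cluster 5 0 of 9 were higher and 3 lower, beside 0.415%, 0.333% and 4.25% of all genes. Cst6, the inhibitor cystatin M/E, stood at 4713, 1921 and 813 CPM, Csta1 at 190, 67.3 and 262 CPM, Slpi at 91.6, 107 and 22.9 CPM and Serpinb2 at 56.6, 84.3 and 252 CPM. Csta1, like Spink5, was lowest at day 7. Of 8 substrates and receptors, 7 were compared, with 1 higher and 1 lower at day 7 and 1 higher and 2 lower at day 42, again beside 2.55% and 5.18%. Il1b, a cytokine, stood at 3.47, 82.9 and 21.8 CPM and Dsg1a, a desmosomal cadherin, at 68.2, 15.8 and 13.4 CPM. Over the 3 libraries Il1b was highest in cluster 12 (385 CPM), which was 1.54%, 18.5% and 1.91% of keratinocytes. The part of RNA from other cells in the Il1b values was not tested. Over all keratinocytes, whose mix of clusters differed between days, the medians of the compared genes at day 42 against day 0 were -1.10 for other kallikreins, 0.23 for other proteases, 0.41 for other inhibitors and -0.93 for substrates and receptors. In clusters 4, 5 and 8 they were -0.092, -0.52 and -0.23 for other proteases and 0.035, -0.67 and 0.13 for other inhibitors. For substrates and receptors they were -0.37, -0.52 and -0.056 in these clusters.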

How the data were processed

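The authors deposited raw UMI counts for each gene in each cell and a cell table with day, cluster, name and a size factor. That size factor is a ratio, deposited by the authors: each cell's total divided by it gave 5283.43 in every cell. Cell Ranger 3.0.2 and mm10 are named in the submitters' processing notes. The filter on cells and the method of naming them were not given in the sources used here. Per the labels' protocols, cells were freed with trypsin, depleted of dead cells and made into 10x 3′ libraries.

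Counts were summed over the cells of a cluster or name and library and divided by their total (CPM). Days were compared as log2 ratios with 10 CPM added, within clusters that had 50 cells or more on both days. With 1 pooled library per day there was no test. CPM have exact Poisson and shares exact Clopper-Pearson 95% intervals, and a count of 0 allows up to 3 counts. Doublets were not removed in the main values, and an alternative dropped the 5% of cells that Scrublet scored highest. The automatic cut-off of that tool called no doublets in the day 7 library, so it had not worked there and was not used. Shares were also read after thinning each cell to 1000 UMIs, leaving out shallower cells. Gene identifiers were matched to GENCODE M21 (99.6% of 31053), from which positions come, and promoter sequences come from RefSeq.

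All 10 genes are named, with the 3 genes most correlated with each among those with at least 50 CPM in 1 combination of cluster and day. Values are given for some, not all, of the genes of 4 fixed lists with at least 100 CPM in a keratinocyte cluster. The members and lists were chosen with earlier results of these data known. Alternatives were a filter on cells, other scalings, a pseudocount of 1 CPM, at least 50 CPM or 200 cells, thinning, equal cluster weights and leaving out top cells. Leaving out cluster 12, shared barcodes, the cells with most kallikrein UMIs or the day 42 library (for shares of UMIs) was chosen after seeing the data. The log2 ratios and the Poisson intervals were checked on simulated counts, whereas the summing over cells and the 2-fold counts were not. The tools were scanpy 1.11.5 (Scrublet), scipy 1.17.1, pandas 2.3.3, matplotlib 3.10.9 and numpy 2.4.6 under Python 3.11.15. One of the genes most like Prss27 is not reported here.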

Additional observations from a re-analysis of the deposited data

Results flagged for a closer look

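The direction of a difference between days was opposite in 2 keratinocyte clusters for some genes. These differences were not tested, since each day was 1 library. Klk10 at day 7 against day 0 had a log2 ratio of 1.07 in cluster 8 and -1.30 in cluster 12, and without the 10 cells with most UMIs 2.20 and 1.63, so the opposite direction rests on a few of the 51 day 0 cells of cluster 12. Spink5 at day 42 against day 7 was at 1.755 in cluster 12 and -1.65 in cluster 13, and 1.41 and -1.47 without those cells. Serpinb3a was at 1.78 in cluster 17 and -2.71 in cluster 12 at day 7 against day 0, and at 1.09 and -1.73 at day 42 against day 0. Serpinb12 was at 1.745 in cluster 17 and -2.31 in cluster 12 at day 7 against day 0, and at -1.22 in cluster 17 and 1.02 in cluster 12 at day 42 against day 7. Without the 10 cells with most UMIs, cluster 17 was at 0 in each of these serpin comparisons. In cluster 12 Serpinb3a then turned to 2.76 at day 7 and went to 0 at day 42, and Serpinb12 turned to 0.90 at day 7 and to -0.90 at day 42 against day 7. The day 42 value of Serpinb3a in cluster 17 rests on 3 UMIs and was -0.13 with likely doublets left out. In cluster 17 at day 7, 7 cells held the 61 Serpinb3a UMIs and 3 cells the 52 Serpinb12 UMIs.

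Cells that the authors named unknown entered no comparison between days above but held some of these genes above their level at day 0. Spink5 stood at 179.8 CPM in them at day 42, Prss22 at 105 CPM and Prss27 at 51.7 CPM. At day 7 Serpinb3a stood at 57.35 CPM and Serpinb12 at 65.5 CPM.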

How the results depend on the processing

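All 10 genes kept their highest level in a keratinocyte cluster under the 7 alternatives run for it. The count of genes past 2-fold in keratinocytes at day 7 against day 0 went from 2 to 1 with the mean CPM per cell or a minimum of 50 CPM, and to 0 after thinning. The 7 at day 42 against day 0 became 3 with equal cluster weights and 1 without cluster 12 as well, and the 8 at day 42 against day 7 became 1 under both. Pairs of gene and cluster at day 7 went from 20 to 12 with the filter on cells, 9 with clusters of at least 200 cells and 13 without cluster 12. At day 42 they went from 22 to 10 after thinning, 8 without the top 10 cells, 12 with a minimum of 50 CPM, 7 with clusters of at least 200 cells and 14 without cluster 12. Where an alternative changes a count, the cause was not tested beyond its construction (fewer cells, clusters or genes). None of the 30 ratios of a single gene in all keratinocytes had a called value change sign. Uncalled ratios could: at day 7 Klk8 went from -0.66 to 0.047 with equal weights, and Serpinb3a from -0.28 to 0.28 after thinning, 0.32 with the mean CPM per cell and 0.64 with equal weights without cluster 12. No paired analysis was possible because each group is 1 pooled library and the labels carry no replicate numbers. Variation between mice cannot be told apart from the day, and Klk5 and Klk6 rest on few cells.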
